A study of Mus musculus with 4 samples.

Results

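The 8 genes described here encode the histone H2A and H3 variants that are made outside the replication-dependent histone gene clusters: H2afx, H2afz, H2afv, H2afy, H2afy2, H2afj, H3f3a and H3f3b, named by their symbols of the mm9 period. They were taken by symbol from a table of RNA levels, and all 8 of them were among its 14533 genes. RNA was measured in mouse embryonic stem cells (ESCs) sorted in G1-phase, after more than 20 days either in serum (medium with fetal calf serum and LIF, "serum ESCs") or in 2i (serum-free Ndiff medium with LIF, the GSK3 inhibitor CHIR99021 and the MEK inhibitor PD0325901, "2i ESCs"). Each condition had 2 libraries, LIF was present in both, and the labels name no cell line. The sample labels place the sorted cells in late G1-phase, whereas the description of the series says early G1-phase. The labels only number the 2 libraries of a condition, and the study describes its late G1-phase comparison as one of biological replicates.

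Most histone protein is made from clustered, intronless genes whose transcripts lack a poly(A) tail and accumulate in S-phase. The variants described here are transcribed from genes elsewhere in the genome and can be placed into chromatin outside DNA replication. H2A.X is phosphorylated around DNA breaks, H2A.Z sits beside many promoters, macroH2A carries a large additional domain and is associated with silenced chromatin, and H3.3 replaces H3 at transcribed genes and at telomeric and repeated DNA. Because the libraries were made from RNA depleted of ribosomal RNA with random primers, transcripts without a poly(A) tail were sequenced together with the others. In bulk samples, fewer cells with a transcript and less RNA per cell cannot be told apart.

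The libraries held 18939401 to 26570098 whole reads over the table. Of these, 46.9% (serum replicate 1), 76.3% (serum replicate 2), 57.8% (2i replicate 1) and 66.3% (2i replicate 2) fell on protein-coding genes, while the 10 most read genes held 50.6%, 17.5%, 34.7% and 25.5% in the same order. Replicate 1 of each condition therefore had a smaller share of its reads on protein-coding genes than replicate 2. All 8 ESC markers examined (Pou5f1, Nanog, Sox2, Zfp42, Esrrb, Klf4, Tdgf1 and Utf1) had a row, with summed normalized counts of 50612 to 67558 per library. Of 6 fibroblast markers, Col1a1 and Thy1 had a row, with a sum of 58.2 to 230.1, and the other 4 had none. Of 7 primitive endoderm markers, 4 had a row, and their sums were lower in serum (72.0 and 108.9) than in 2i (332.2 and 256.1), and the part of such cells in the results below was not tested.

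Several of these genes encode nearly the same protein from different bases, and some have pseudogene copies. This decides which reads can be assigned, so the first 120 coding bases (mm9) are shown from a representative gene of each set, with capitals at the bases that differ from the first sequence of the set. H2afz (chr3:137527658-137528522, plus strand, these bases lie in 3 exons) and H2afv (chr11:6333802-6344342, minus strand, 3 exons) both encode H2A.Z, and Gm8203 (chr6:116123755-116123874, plus strand) is annotated as a pseudogene.
H2afz: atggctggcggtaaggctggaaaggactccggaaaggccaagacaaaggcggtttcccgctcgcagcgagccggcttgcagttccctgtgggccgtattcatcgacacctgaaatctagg
H2afv: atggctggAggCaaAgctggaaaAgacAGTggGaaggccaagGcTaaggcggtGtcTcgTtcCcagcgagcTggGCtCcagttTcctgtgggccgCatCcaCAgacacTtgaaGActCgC
Gm8203: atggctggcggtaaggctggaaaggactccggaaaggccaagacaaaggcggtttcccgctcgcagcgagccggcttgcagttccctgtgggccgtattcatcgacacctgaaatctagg
Over all 387 coding bases, H2afz and H2afv differed at 81 bases, which changed 3 encoded residues, and their longest common run was 14 bases. Reads of 43 bases from the coding part therefore tell these paralogs apart. The same 387 bases of Gm8203 were identical to those of H2afz.

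For H3.3, the bases of H3f3a (chr1:182741938-182742057, minus strand), H3f3b (chr11:115885204-115885323, minus strand) and the pseudogene H3f3a-ps2 (chr16:91114725-91114844, minus strand) show the same arrangement, a distinct paralog and a close copy.
H3f3a: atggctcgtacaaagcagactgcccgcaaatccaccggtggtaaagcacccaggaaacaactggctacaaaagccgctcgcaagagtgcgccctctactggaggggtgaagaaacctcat
H3f3b: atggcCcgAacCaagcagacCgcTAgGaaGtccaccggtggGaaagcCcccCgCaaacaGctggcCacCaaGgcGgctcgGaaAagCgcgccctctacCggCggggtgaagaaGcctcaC
H3f3a-ps2: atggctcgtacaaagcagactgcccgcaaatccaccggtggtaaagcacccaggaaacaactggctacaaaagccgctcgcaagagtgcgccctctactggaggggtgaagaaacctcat
H3f3a and H3f3b differed at 95 of 411 coding bases and encoded the same residues, with a longest common run of 23 bases. H3f3a-ps2 differed from H3f3a at 5 bases over the same length and at 0 of the 120 shown.

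H2afx (chr9:44142845-44142964, plus strand), H2afj (chr6:136756861-136756980, plus strand) and a clustered gene, Hist1h2ac (chr13:23775667-23775786, minus strand), are shown because the canonical-like H2A variants resemble the clustered H2A genes.
H2afx: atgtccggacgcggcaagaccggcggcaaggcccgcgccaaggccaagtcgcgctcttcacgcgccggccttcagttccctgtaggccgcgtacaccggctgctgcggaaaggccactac
H2afj: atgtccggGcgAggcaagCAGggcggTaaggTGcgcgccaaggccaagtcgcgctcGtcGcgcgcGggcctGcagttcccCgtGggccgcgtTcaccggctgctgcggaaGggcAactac
Hist1h2ac: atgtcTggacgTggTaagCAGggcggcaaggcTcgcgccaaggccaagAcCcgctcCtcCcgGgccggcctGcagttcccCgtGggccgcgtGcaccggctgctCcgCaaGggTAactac
H2afj differed from H2afx at 17 of these bases and Hist1h2ac at 21. The longest run shared over the whole coding part was 51 bases between H2afx and H2afj and 117 bases between H2afx and Hist1h2ac, longer than a read.

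Counted over all annotated transcripts, the share of 43-base words found in no other gene was 100% for H2afv and H2afy, 98.9% for H2afj, 95.4% for H3f3b, 92.7% for H2afx, 88.1% for H2afy2, 77.3% for H3f3a and 56.9% for H2afz. H2afx shared words with 24 other genes, of which 20 were clustered H2A genes, and H2afj with 22, of which 18 were. H3f3a shared words with 147 genes, and H2afz with 2, above all with Gm8203, which held 43.1% of its words. Values of H2afz, H3f3a and H2afy2 are therefore less certain than those of H2afv and H2afy.

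Values are normalized counts, that is read counts per gene divided by a size factor for each library, and fold changes are serum over 2i on the log2(normalized count + 1) scale with limma p-values adjusted (Benjamini-Hochberg) over the 13005 genes with a mean of at least 50 in either condition. Called genes are those with an adjusted p under 0.05 that also differ more than 2-fold. All 8 variant genes passed the filter, and 0 of 8 were called, where 0.0154% of all genes tested were (2 genes, both U1 spliceosomal RNA genes that were higher in 2i). 0 of 8 had an unadjusted p under 0.05, against 5.97% of all genes. On whole reads, DESeq2 also called 0 of 8 (1.93% of all genes) and put 0 of 8 at an unadjusted p under 0.05 (13.2%), and edgeR called 0 of 8 (0% of all genes) and put 0 of 8 under that p (6.05%). Of the 8, 3 were higher in serum ESCs and 5 were lower, where 49.7% of all genes were lower, and the median log2 fold change was -0.13 against 0.0047 over all genes tested. In both conditions replicate 2 was above replicate 1 for 4 of the 8 genes (29.2% of all genes).

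**Figure D1:**
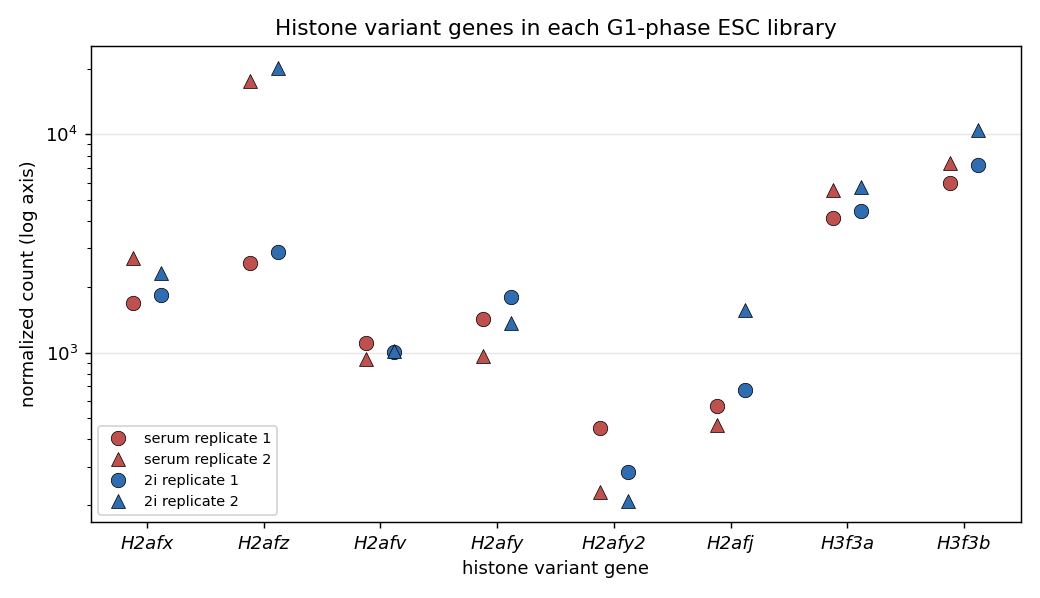
Normalized count (log axis) of the 8 histone variant genes in each library; red is serum, blue is 2i, circles are replicate 1 and triangles replicate 2. H2afz spans 2580 to 20255 with replicate 2 high in both conditions, and H2afj is the only gene with both serum libraries below both 2i libraries.

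H2afx (ENSMUSG00000049932, chr9:44142798-44144154, plus strand), the H2A.X gene, has 1 annotated transcript of 1357 bases. The serum libraries gave 1695 (replicate 1) and 2722 (replicate 2) normalized counts, and the 2i libraries gave 1836 and 2307. The 2i values lay inside the range of the serum values, and replicate 2 was above replicate 1 in both conditions. Serum over 2i, the log2 fold change of H2afx was 0.06 with an SE of 0.47 (95% confidence interval -1.07 to 1.19, limma adjusted p = 0.982). It was 0.67 once GC content and length of each gene were corrected for, and the gene is GC-rich, at 62.6%.

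H2afz (ENSMUSG00000037894, chr3:137527451-137529886, plus strand), the main H2A.Z gene, gave 2580 normalized counts in serum replicate 1 but 17621 in replicate 2, and 2899 in 2i replicate 1 but 20255 in replicate 2. Replicate 2 was 6.83-fold above replicate 1 in serum and 6.99-fold above it in 2i, whereas the conditions were close within each replicate number. A gap at least as large in both conditions was found for 51 of the 13005 genes (0.392%). Its log2 fold change was -0.18 with an SE of 1.20, and its interval, -3.07 to 2.70, was the widest of the 8 genes (limma adjusted p = 0.977). Leaving out serum replicate 1 gave 1.20 and leaving out 2i replicate 2 gave 1.22, whereas without 2i replicate 1 it was -1.59, so that the direction rested on which library was kept.

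Gm8203 (ENSMUSG00000060214, chr6:116123652-116124512), the pseudogene whose coding bases are shown above, gave 13524 normalized counts in serum replicate 1 but 19.4 in replicate 2, and 3574 in 2i replicate 1 but 670.3 in replicate 2. It was thus high where H2afz was low, and it held 84.0%, 0.110%, 55.2% and 3.20% of the sum of both genes in these libraries. H2afz and Gm8203 summed to 16104 and 17641 (serum) against 6474 and 20925 (2i). The serum replicates of the sum differed 1.10-fold, where those of H2afz alone differed 6.83-fold, and the 2i replicates still differed 3.23-fold. The sum gave a log2 fold change of 0.53 with an SE of 0.71 (interval -1.17 to 2.24, limma adjusted p = 0.867). Leaving out 2i replicate 1 turned it to -0.31, and leaving out 2i replicate 2 gave 1.38. How the authors' estimation divided these reads between the copies was not tested.

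**Figure D2:**
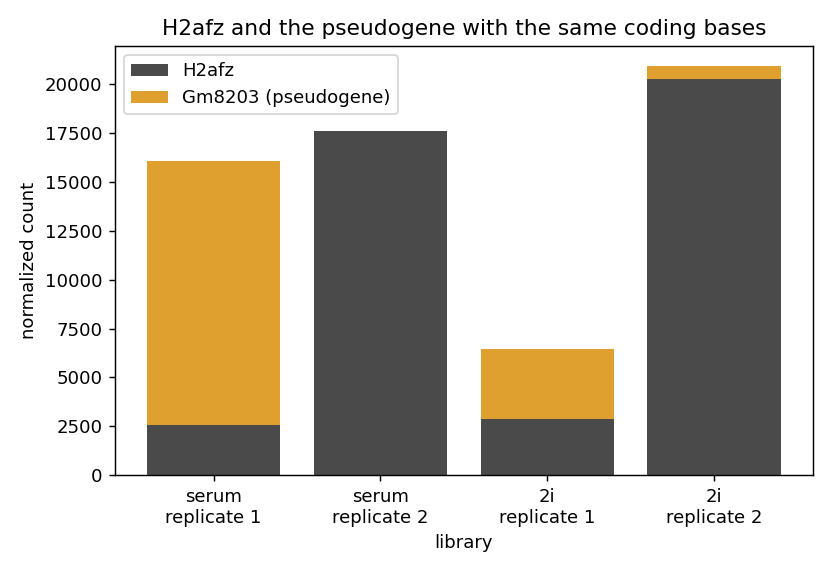
Normalized counts of H2afz (dark) and of the pseudogene Gm8203 (yellow) stacked for each of the 4 libraries. The stacks of the serum libraries have nearly equal heights, 16104 and 17641, although H2afz alone is 2580 and 17621, and the stack of 2i replicate 1 is the lowest at 6474.

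H2afv (ENSMUSG00000041126, chr11:6327229-6344446, minus strand) is the other H2A.Z gene and shared no 43-base word with another gene. Its serum libraries gave 1106 and 935.1 normalized counts and its 2i libraries 1004 and 1018, the narrowest range of the 8 genes. The serum libraries enclosed the 2i libraries, and the replicates did not show the gap of H2afz. H2afv had a log2 fold change of 0.0086 with an SE of 0.42 (interval -0.999 to 1.02, limma adjusted p = 0.997), so a difference of up to about 2-fold in either direction lay within the interval. H2afz and H2afv summed to 3686 and 18556 (serum) against 3903 and 21273 (2i) normalized counts, following H2afz (log2 fold change -0.14, SE 1.06, limma adjusted p = 0.981). Their log2 ratio, H2afz to H2afv per kb of exon, was 1.11 and 4.12 (serum) against 1.41 and 4.20 (2i), so the conditions overlapped.

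H2afy (ENSMUSG00000015937, chr13:56174980-56237722, minus strand) encodes macroH2A1, and all of its words were its own, although its locus overlaps Gm17253 on the opposite strand. The serum libraries gave 1421 (replicate 1) and 967.1 (replicate 2) normalized counts, and the 2i libraries 1793 and 1368. Serum was below 2i at each replicate number, and replicate 2 was below replicate 1 in both conditions, so that the groups overlapped. This gave a log2 fold change of -0.42 with an SE of 0.45 (interval -1.51 to 0.68, limma adjusted p = 0.835), which kept its sign without each library, between -0.69 and -0.14.

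H2afy2 (ENSMUSG00000020086, chr10:61201391-61246895, minus strand) encodes macroH2A2 and was the least abundant of the 8, at 449.2 and 229.4 (serum) against 282.4 and 209.5 (2i) normalized counts. Serum replicate 1 stood above the other libraries. The log2 fold change of 0.40 (SE 0.54, interval -0.91 to 1.71, limma adjusted p = 0.870) was -0.08 without serum replicate 1, 0.88 without serum replicate 2 and 0.84 after the GC content and length correction. The pseudogene H2afy3, which held 11.9% of its words, had 0 to 56.4 normalized counts, and the sum of both gave 0.55 (SE 0.52, limma adjusted p = 0.801). The 3′ end of H2afy2 overlaps the gene Aifm2 on the opposite strand, and the counting is not stated to use strand. For both macroH2A genes together the sums were 1870 and 1197 (serum) against 2075 and 1577 (2i) normalized counts (log2 fold change -0.27, SE 0.47, limma adjusted p = 0.900).

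Relative to H2afy2, the other macroH2A gene H2afy stood higher in both 2i libraries than in both serum libraries. The log2 ratio of H2afy to H2afy2, each per kb of exon, was 0.03 and 0.44 for the serum libraries, against 1.03 and 1.07 for those from 2i. Per kb of the longest coding transcript it was 1.75 and 2.16 (serum) against 2.75 and 2.79 (2i). The choice of length moved the log2 ratio by the same amount in every library. It changed the size of the ratio and could not change the order of the libraries. The ratio was not tested, and the conditions overlapped for each of these genes alone. Of all genes tested, 39.9% did not overlap between the conditions in either direction.

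H2afj (ENSMUSG00000060032, chr6:136756769-136758595, plus strand) encodes H2A.J, a variant that differs little from canonical H2A. The serum libraries gave 567.3 (replicate 1) and 463.6 (replicate 2) normalized counts, and the 2i libraries 671.7 and 1573. Both serum libraries were below both 2i libraries, which held for this gene alone among the 8 and for 39.9% of all genes tested in either direction (19.4% in this one). H2afj had a log2 fold change of -1.002 with an SE of 0.54 (interval -2.32 to 0.31, limma adjusted p = 0.753), and 15.9% of all genes were lower in serum by 2-fold or more. The unadjusted p was 0.113 by limma, 0.0799 by edgeR and 0.0620 by DESeq2. The size rested on 2i replicate 2: it was -0.39 without that library and -1.62 without 2i replicate 1 (limma adjusted p = 0.421), and the GC content and length correction gave -0.49.

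H3f3a (ENSMUSG00000060743, chr1:182730963-182744074, minus strand) and H3f3b (ENSMUSG00000016559, chr11:115883226-115889276, minus strand) both encode H3.3. H3f3a was measured at 4125 and 5585 (serum) against 4478 and 5733 (2i) normalized counts. The conditions interleaved, with replicate 2 above replicate 1 in both. Its log2 fold change was -0.08 with an SE of 0.48 (interval -1.23 to 1.07, limma adjusted p = 0.976). The genes that share at least 100 words with it, Gm10257, Gm12657, H3f3c and H3f3a-ps2, added 48.5 to 996.5 normalized counts, most of them in serum replicate 1, where H3f3a-ps2 had 694.4 and H3f3c 277.1. With them the sums were 5122 and 5829 (serum) against 4540 and 5781 (2i), and the log2 fold change was 0.09 (SE 0.47, limma adjusted p = 0.973). H3f3a also overlaps Gm17275 and Gm16067 on the opposite strand.

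For H3f3b the serum libraries gave 6009 (replicate 1) and 7393 (replicate 2) normalized counts, and the 2i libraries 7235 and 10453. Serum was lower at each replicate number, but 2i replicate 1 lay below serum replicate 2. H3f3b had a log2 fold change of -0.38 with an SE of 0.51 (interval -1.60 to 0.83, limma adjusted p = 0.867). Both genes summed to 10134 and 12978 (serum) against 11713 and 16186 (2i) normalized counts, a log2 fold change of -0.26 (SE 0.54, interval -1.57 to 1.04, limma adjusted p = 0.919). The log2 ratio of H3f3b to H3f3a per kb of exon was 0.78 and 0.64 for the serum libraries, against 0.93 and 1.10 for those from 2i. H3f3b was thus the more abundant H3.3 transcript in every library. Its ratio was higher in both 2i libraries than in both serum libraries, with no test. Among single genes tested, 39.9% did not overlap in either direction.

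**Figure D3:**
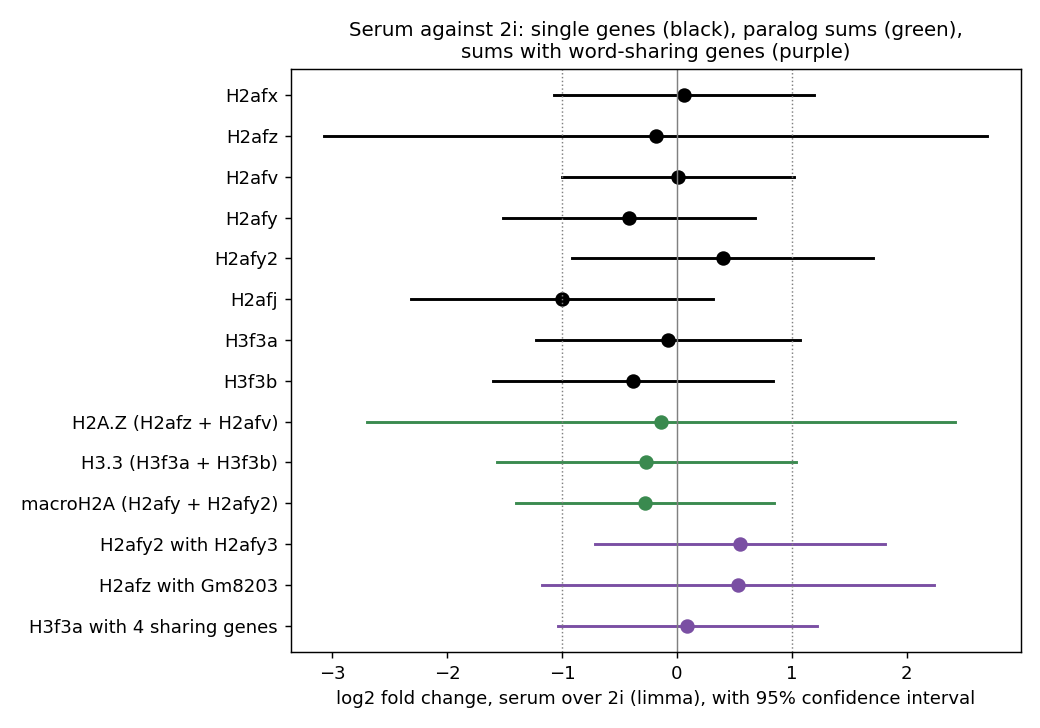
Log2 fold change of serum over 2i (limma) with its 95% confidence interval for each variant gene (black), for the sums of paralogs that encode the same kind of variant (green) and for genes summed with copies that share their 43-base words (purple); dotted lines mark 2-fold. Each interval includes 0, and those of H2afz and the H2A.Z sum are the widest.

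Per kb of exon, the levels can be compared between genes. H2afz (1453 to 11405 normalized counts per kb over the 4 libraries) and H3f3b (2019 to 3512) held the first and second place in every library, in changing order. H2afz came second in replicate 1 of both conditions. There Gm8203 held 13524 (serum) and 3574 (2i) normalized counts that are left out here, so the order of H2afz and H3f3b is uncertain. H2afx (1249 to 2006) and H3f3a (1177 to 1636) came next and overlapped each other. H2afv (570.5 to 674.5) and H2afj (253.8 to 861.2) followed, H2afj passing H2afv only in 2i replicate 2. The macroH2A genes H2afy (142.0 to 263.3) and H2afy2 (95.4 to 204.5) were lowest in every library, and their ranges overlapped. Divided by the longest coding transcript instead, H2afy, whose annotated exons are much longer than that transcript, moved to place 5 or 6, whereas H2afy2 stayed last.

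Set against the clustered H3 genes, H3.3 took a larger share of the H3 transcripts in both 2i libraries than in both serum libraries. Per kb of exon, the 2 H3.3 genes summed to 3196 and 4078 (serum) against 3709 and 5148 (2i) normalized counts, and the 12 clustered H3 genes to 108793 and 80270 (serum) against 48403 and 47605 (2i). The sum of the clustered genes was thus higher in both serum libraries, and that of the H3.3 genes overlapped between conditions. H3.3 made up 2.85% and 4.83% of the H3 sum in serum (mean 3.84 ± 1.40, SD, n = 2) and 7.12% and 9.76% in 2i (8.44 ± 1.87, SD, n = 2). The difference was -4.59 percentage points, and -5.91 to -3.27 with 1 library left out. Its sign could not turn in this way, because both 2i shares lay above both serum shares. The shares were not tested. Among single genes tested, 39.9% did not overlap between the conditions in either direction, and 19.4% did so with 2i higher. Without division by length the shares were 14.1% and 20.6% for serum libraries, against 29.8% and 34.5% for those from 2i. A share within a library does not depend on how that library was scaled.

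All 12 clustered H3 genes had a log2 fold change above 0 (50.3% of all genes tested did), with a median of 1.19. Under TMM or upper quartile scaling, and by edgeR or DESeq2, 11 of 12 did. Without serum replicate 2 it was 10 of 12, and without 2i replicate 1 or without 2i replicate 2 it was 11 of 12. Without serum replicate 1 the median was 0.95. By limma, 0 of 12 were called (0.0154% of all genes tested), and DESeq2 called 1, Hist1h3b (1.93% of all genes). An unadjusted limma p under 0.05 was reached by 5 of 12, all higher in serum, and by 2.97% of all genes in that direction. The highest was Hist1h3i with 1.31 and the lowest Hist2h3c1 with 0.01. Clustered H3 genes resemble one another, and how many 43-base words they share was not measured. In the same libraries, 9 of 10 G2/M genes were higher in serum, with a median of 1.08, from Mki67 at 2.40 to Cdk1 at -0.01. The 10 S-phase genes were all higher in serum, with a median of 0.43, from Rrm2 at 1.83 to Mcm5 at 0.15, and without 2i replicate 1 only 5 of 10 were (median 0.02, against 0.85 without 2i replicate 2). The part of cell-cycle phase in the H3.3 share was not tested.

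**Figure D4:**
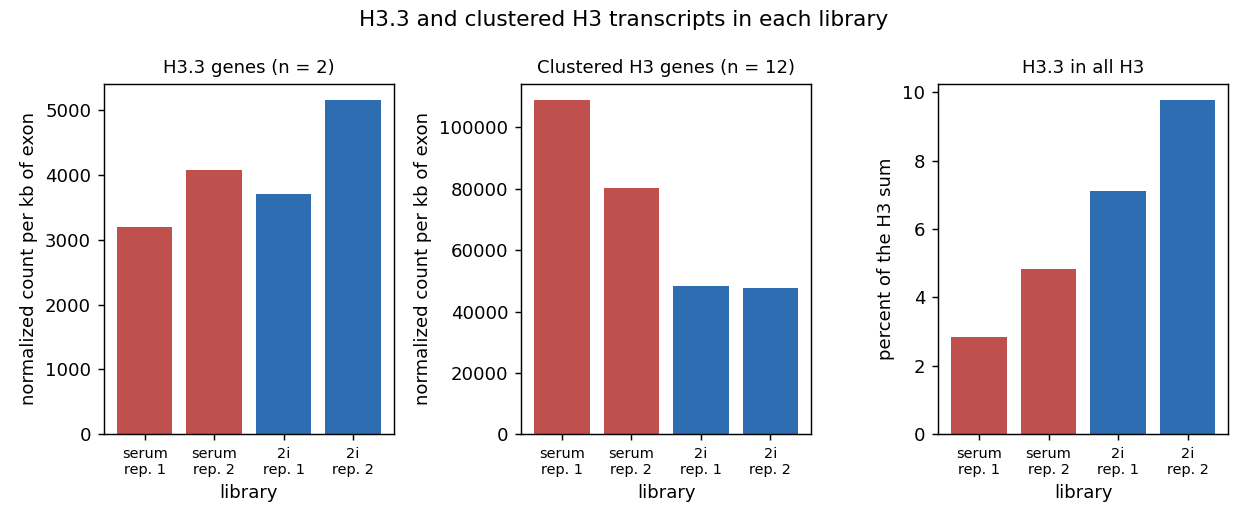
Summed normalized counts per kb of exon of the 2 H3.3 genes (left) and of the 12 clustered H3 genes (middle), and H3.3 as a percent of all H3 (right), as 1 bar per library; red is serum, blue is 2i. The percent is higher in both 2i libraries, 7.12 and 9.76, than in both serum libraries, 2.85 and 4.83, while the left panel overlaps.

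The 6 H2A variants took 6.37% and 16.1% (serum) against 13.6% and 18% (2i) of all H2A transcripts per kb, so the conditions overlapped. Replicate 1 was the lower library in both conditions. With word-sharing genes counted to the variants the shares were 16.3% and 16.1% (serum) against 18.7% and 18.3% (2i). Counted in this way the conditions did not overlap, as for 39.9% of single genes tested in either direction, and the shares were not tested. The 19 clustered H2A genes summed to 60294 and 67800 (serum) against 27704 and 67903 (2i) normalized counts per kb, with 2i replicate 1 low. Of the 18 that passed the filter, 12 were higher and 6 lower in serum, with a median of 0.92, which was -0.04 without 2i replicate 1, 0.49 without serum replicate 2 and 1.59 without 2i replicate 2. By limma 0 of 18 were called (DESeq2 called Hist1h2aj and Hist1h2ao, both lower in serum). With an unadjusted limma p under 0.05, 3 were higher and 1 lower, against 5.97% of all genes in either direction. They ran from Hist1h2ap at 6.76 to Hist1h2aj at -6.49, and each of these had 0 reads in 1 library.

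The genes whose products load, exchange or read these variants had log2 fold changes mostly above 0, that is higher values in serum ESCs. None of them was called by limma, edgeR or DESeq2, which called 0.0154%, 0% and 1.93% of all genes tested. Of 7 genes for H3.3 deposition, 7 had a log2 fold change above 0, with a median of 0.65, and the same count held under TMM, upper quartile and quantile scaling. Hira, the histone chaperone that places H3.3 at transcribed genes, was measured at 929.5 and 1098 (serum) against 499.3 and 492.8 (2i) normalized counts. Its log2 fold change was 1.02 with an SE of 0.42 (unadjusted p = 0.0486, limma adjusted p = 0.753). It was the only gene of the list with an unadjusted limma p under 0.05, where 2.97% of all genes were so and higher in serum. Atrx, which acts with Daxx at telomeric and repeated DNA, was highest at 1.03, Daxx was at 0.64, and Cabin1 of the HIRA complex was lowest at 0.13. In 4 of the 7, both serum libraries were above both 2i libraries, against 20.5% of all genes tested. The size rested on single libraries: the median was 0.38 without 2i replicate 1, 0.98 without 2i replicate 2 and 1.05 without serum replicate 1, and 6 of 7 were above 0 without serum replicate 2.

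The list for H2A.Z exchange, which covers the SRCAP and TIP60 complexes, INO80 and the H2A.Z chaperone ANP32E, had 19 rows for 18 genes, since Srcap was on 2 rows. Of these, 17 were higher and 2 lower in serum, with a median of 0.51, and 15 to 17 were higher under TMM, upper quartile and quantile scaling. Anp32e, whose product removes H2A.Z from chromatin, was measured at 2008 and 4108 (serum) against 1394 and 565.5 (2i) normalized counts. Its log2 fold change was 1.69 with an SE of 0.62 (unadjusted p = 0.0324, limma adjusted p = 0.753). Mbtd1, a TIP60 subunit, was at 1.23 (unadjusted p = 0.0488, by limma) and Ino80 at 1.02. By limma, 2.97% of all genes tested were higher in serum with an unadjusted p under 0.05. The lowest were Vps72, which binds H2A.Z in the SRCAP complex, at -0.49, and Dmap1 at -0.51. In 9 of 19 rows both serum libraries were above both 2i libraries (20.5% of all genes) and in 0 of 19 the reverse (19.4%). Leaving out 1 library moved the median to between 0.29 (without 2i replicate 1) and 0.69 (without serum replicate 1), and 14 of 19 were higher without serum replicate 2.

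The H2AX kinases and readers, 10 genes of the DNA damage response, had 9 members higher in serum and a median log2 fold change of 0.46. Of the 10, 0 had an unadjusted limma p under 0.05, against 5.97% of all genes tested. Atm, the kinase that phosphorylates H2A.X at breaks, was highest at 1.16, with 1930 and 3438 (serum) against 860.6 and 1537 (2i) normalized counts. Rnf8, a ubiquitin ligase recruited to these sites, was lowest at -0.05. In 7 of 10 both serum libraries were above both 2i libraries (20.5% of all genes). After the GC content and length correction 7 of 10 were higher, with a median of 0.29, and 7 of 10 were higher without 2i replicate 1. The median was 0.31 without serum replicate 2. The 6 genes of replication-coupled H3 deposition were all above 0, with a median of 0.53, from Nasp at 1.47, a histone H3-H4 chaperone with 10373 and 24268 (serum) against 6682 and 4879 (2i) normalized counts, to Chaf1b of CAF-1 at 0.0036. Under TMM, upper quartile and quantile scaling 5 of 6 were. In this list 3 of 6 did not overlap, all higher in serum (20.5% of all genes). Its median was 0.22 without 2i replicate 1, 0.35 without serum replicate 2 and 0.88 without 2i replicate 2.

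Of 6 other histone genes expressed outside replication, Cenpa, H1fx and H1f0 had a row. Cenpa, the H3 variant of centromeres, was measured at 2225 and 1768 (serum) against 840.9 and 537.4 (2i) normalized counts. Both serum libraries were thus above both 2i libraries, as for 20.5% of all genes tested. Its log2 fold change was 1.56 with an SE of 0.46 (unadjusted p = 0.0132, limma adjusted p = 0.753). Of all genes tested, 2.97% were higher in serum at an unadjusted limma p under 0.05. H1fx and H1f0, linker histone variants, were at -0.43 and -0.48, and after the GC content and length correction all 3 genes were above 0. For H1fx both serum libraries (45.0 and 54.4 normalized counts) were below both 2i libraries (59.2 and 75.7), as for 19.4% of all genes.

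**Figure D5:**
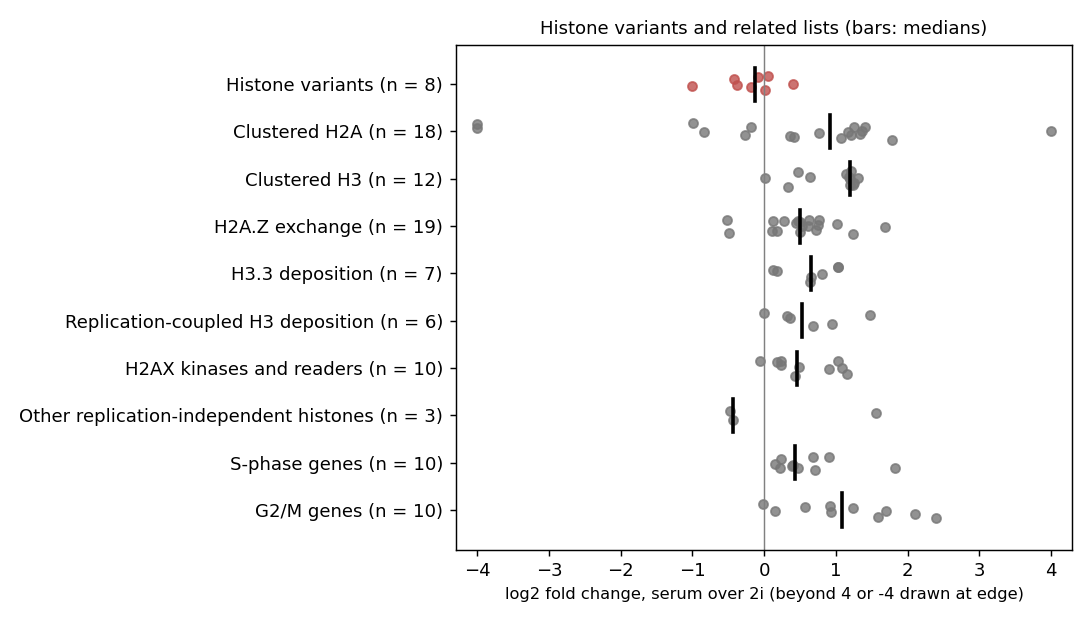
Log2 fold change of serum over 2i (limma) for each tested gene of the 8 histone variants (red) and of the related lists (grey), with vertical bars at the medians; points beyond 4 in either direction are drawn at the edge. The variants lie around 0 with a median of -0.13, the 3 other replication-independent histones have a median of -0.43, and the medians of the remaining lists lie between 0.43 and 1.19.

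To describe which genes had the profile most like each variant, the 4 log2 values of a gene were centred on their mean, and the Euclidean distance to each of 11808 protein-coding genes was taken over the 4 libraries. The nearest gene to H2afj was Amt, at a distance of 0.03, with 948.5 and 778.6 (serum) against 1152 and 2664 (2i) normalized counts. The nearest to H2afz was Sec61g, with 64.0 and 340.2 (serum) against 60.2 and 362.8 (2i), at 0.36, the largest distance of the 8. The other nearest genes, at 0.03 to 0.07, were Lsm14b for H2afx, Ctdsp2 for H2afv, St5 for H2afy, 9030624G23Rik for H2afy2, Kif1c for H3f3a and Ptgfrn for H3f3b. With 4 libraries such profiles are short, and the distances are a description only.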

How the data were processed

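RNA was measured in 4 libraries of G1-phase mouse ESCs, 2 in serum and 2 in 2i. Per the study's methods, the authors sorted cells with the FUCCI reporter, extracted RNA with Trizol, depleted ribosomal RNA, primed at random positions and sequenced single ends of 43 bases. They aligned reads to mm9 with Bowtie and estimated gene expression with MMSeq. What the authors deposited is a signal per gene, the estimated read count over a library size factor (normalized count). Every value was a whole multiple of 1 step per library, so whole reads were recovered for 100% of the values. The table held 14533 genes, of which 71 had no GENCODE vM1 entry (mm9), and 0 columns of values were left unused.

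Genes with a mean of at least 50 in either condition were tested with limma 3.58.1 under R 4.3.3, using the log2 of the normalized count + 1, a variance trend and no replicate term, over all 13005 such genes. Genes were called at a Benjamini-Hochberg adjusted p under 0.05 and an absolute log2 fold change above 1. The log2(normalized count + 1) scale understates changes of low genes. Sums of paralogs replaced their genes in the same fit. Per kb values used the union of exons in GENCODE vM1. Words are all 43-base runs of the annotated transcripts, and sequences came from the mm9 genome. Alternatives were pseudocounts of 0.5 and 5, no filter, a mean of at least 200, TMM, quantile and upper quartile scaling, a replicate block, each library left out, limma without trend, a GC content and length correction (mgcv 1.9.3), and edgeR 4.0.16 and DESeq2 1.42.0 on whole reads. Sums with word-sharing genes, lengths of the longest coding transcript and shares with word-sharing genes were added after seeing the data. The fit was tested on simulated data.

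The genes and lists were chosen with earlier results of these data known. The rule named every variant gene, the highest and lowest gene of each list, any other list gene, and for each variant the nearest protein-coding gene. The U1 genes were named after their values were seen.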

Additional observations from a re-analysis of the deposited data

How the results depend on the processing

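Of 136 fold changes of the 8 variant genes under the alternatives, 117 kept their direction and 19 turned, and 0 passed the threshold (lowest adjusted p 0.411, for H2afj by DESeq2). Calls among the 8 genes and among the paralog sums were 0 throughout. Those that turned, apart from leaving out a library, were small values. H2afv was -0.0050 under TMM, -0.11 under upper quartile, -0.12 under quantile scaling, -0.020 by edgeR and -0.0084 by DESeq2. H2afx was -0.059 under upper quartile and -0.13 under quantile scaling. H2afz was 0.10 under quantile scaling and 0.082 after the GC content and length correction, with or without the replicate block, and the H2A.Z sum was 0.19 and 0.085 under these. The H3.3 sum was 0.0040 under quantile scaling, and H3f3a with its sharing genes was -0.028 under upper quartile scaling. Upper quartile scaling moved the median of all genes to -0.12 and the GC content and length correction moved it to 0.091.

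Leaving out 1 library gave -0.28 to 0.40 for H2afx, -1.59 to 1.22 for H2afz, -0.11 to 0.13 for H2afv, -0.69 to -0.14 for H2afy, -0.084 to 0.88 for H2afy2, -1.62 to -0.39 for H2afj, -0.30 to 0.14 for H3f3a and -0.65 to -0.12 for H3f3b. It gave -1.36 to 1.08 for the H2A.Z sum, -0.50 to -0.03 for H3.3, -0.60 to 0.048 for macroH2A, 0.16 to 0.94 for H2afy2 with H2afy3, -0.31 to 1.38 for H2afz with Gm8203 and -0.081 to 0.27 for H3f3a with its sharing genes. The difference in the H3.3 share ran from -5.91 to -3.27 points and that in the H2A variant share from -9.42 to 0.302. The H3.3 difference was -14.8 points when values were not divided by length.

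The count of all genes called, 2 in the report, was 4 at a mean of at least 200, 1 without trend, 1 after the GC content and length correction, 0 by edgeR, 251 by DESeq2 (73 higher in serum, 178 in 2i) and 0 to 0 without 1 library. Replicate numbers are shared between conditions in the labels, but nothing says that they mark a common culture, and there are only 2 pairs. The replicate differences of serum and 2i correlated across genes (r = 0.480), as a hint from the data and not the design. With the replicate block 203 genes were called (44 higher in serum, 159 in 2i), and 14 after the GC content and length correction. 0 of the 8 variant genes were called with the block (lowest limma adjusted p = 0.513, for H2afj). Among the related lists, 0 genes were called in the report. With the replicate block 3 were (Mki67, Hist1h2ap and, lower in serum, Hist1h2aj), and by DESeq2 5 were (Cdc20, Rrm2, Hist1h3b and, lower in serum, Hist1h2ao and Hist1h2aj). Hist1h2ao had reads in 2i replicate 1 only. The cause of these moves in the counts of called genes was not tested.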
